A study of Mus musculus with 8 samples.

Results

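Genotype differences in liver gene expression were examined for the late diet weeks, weeks 3 and 4 of a high fat-high sucrose (HFHS) diet, by setting the 2 Pemt-/- arrays of those weeks against the 2 Pemt+/+ arrays. The 4 arrays were taken by genotype and week as their titles give them, out of 8 arrays in the series, which hold 1 array per genotype at each of weeks 1, 2, 3 and 4. The 4 arrays of weeks 1 and 2 are called early here and were used to ask where the late difference was larger or smaller. All mice received HFHS chow, so no array of standard chow enters. Per the study's methods the mice were male, and the labels give neither age nor strain. The methods name 4 mice per genotype for the liver samples of weeks 1 to 4, without saying which mice gave the RNA of which array. The p-values measure how far the genotype difference varied between weeks 1 and 2 and between weeks 3 and 4. This spread was moderated by that of other probe sets, and it may be technical in part. Precision is limited by there being 2 arrays a side.

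Phosphatidylcholine, the main phospholipid of membranes and lipoproteins, is made in liver from choline and, in hepatocytes, also by stepwise methylation of phosphatidylethanolamine, the reaction that Pemt catalyses with S-adenosylmethionine as the methyl donor. Lipoprotein secretion, bile and the surface of lipid droplets all draw on this phospholipid. Mouse liver consists mainly of hepatocytes, with Kupffer cells and other macrophages, sinusoidal endothelium, stellate cells that can produce matrix, and bile duct cells. On whole liver arrays, fewer cells of a type and less RNA per cell cannot be told apart.

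The deposited intensities had been scaled to one trimmed mean by the authors, and the upper quartile of the late arrays lay at 412 and 425 in Pemt-/- and at 363 and 370 in Pemt+/+. The liver label was borne out by hepatocyte genes: Alb, the albumin gene, measured 34753 and 34392 in Pemt-/- and 47748 and 45991 in Pemt+/+. One array stood apart. On the Pemt+/+ array of week 4, 30 genes lay at least 2 log2 units above every other array, against 0 to 2 genes on each of the other 7 arrays. They included Hsd3b1, Cyp11b1, Star and Mc2r, known for steroid synthesis in the adrenal cortex, Chgb, Chga and Th of chromaffin cells, and Ucp1, Cidea and Adipoq of fat. Cyp11b1 measured 2048 there and 4.16 to 50.6 on the other 7 arrays, and Adipoq measured 1081 against 2.34 to 62.1. Ucp1 measured 654 against 3.40 to 8.04. Summed over 2 fat cell markers, intensity was 11.4 and 6.12 in late Pemt-/- and 71.4 and 1112 in late Pemt+/+. Their part in the genotype difference was not tested, and the counts of the lists below without week 4, which leaves out this array, stand beside those that held more than 1 call. Since the comparison is made within weeks, leaving out the Pemt+/+ array of week 4 alone gives the same fit as leaving out week 4.

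A gene was called when its Pemt-/- minus Pemt+/+ difference in log2(intensity + 16), averaged over weeks 3 and 4, had an adjusted p under 0.05 in limma's moderated test over all 27022 probe sets. Of 12949 genes, 1539 (11.9%) were called higher and 942 (7.27%) lower in Pemt-/-. These shares are the background for the late counts of every list below. All 2481 called genes lay on the same side of 0 in both weeks, which the call itself favours, since a gap between the weeks adds to its spread. Over all genes tested, 75.61% had the same sign in weeks 3 and 4. On the late arrays the genotypes did not overlap in 8404 of the 12949 genes. Genes called that also differed by at least 2-fold in week 3 and in week 4 are described as differing in both weeks. They numbered 770 higher (5.95% of the genes tested) and 194 lower (1.5%), so most genes that differed by this much were higher in the knockout. Of the genes called higher, 179 passed the 2-fold limit only in week 3, 150 only in week 4 and 440 in neither week. Of those called lower, 71 passed it only in week 3, 89 only in week 4 and 588 in neither. Across genes, which are not independent replicates, the differences of week 3 and week 4 correlated at r = 0.728, and those of weeks 1 and 2 at r = 0.450. Without any test, 2723 of 45037 probe sets had a ratio of 2 or more in both late weeks and 2358 a ratio of 0.5 or less. Where at least 1 of the arrays compared had to reach an intensity of 50, these became 1755 and 761. Without week 3 the probe sets called went from 2525 to 1243 higher and from 1537 to 614 lower. Without week 4 they were 1302 and 531.

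**Figure D1:**
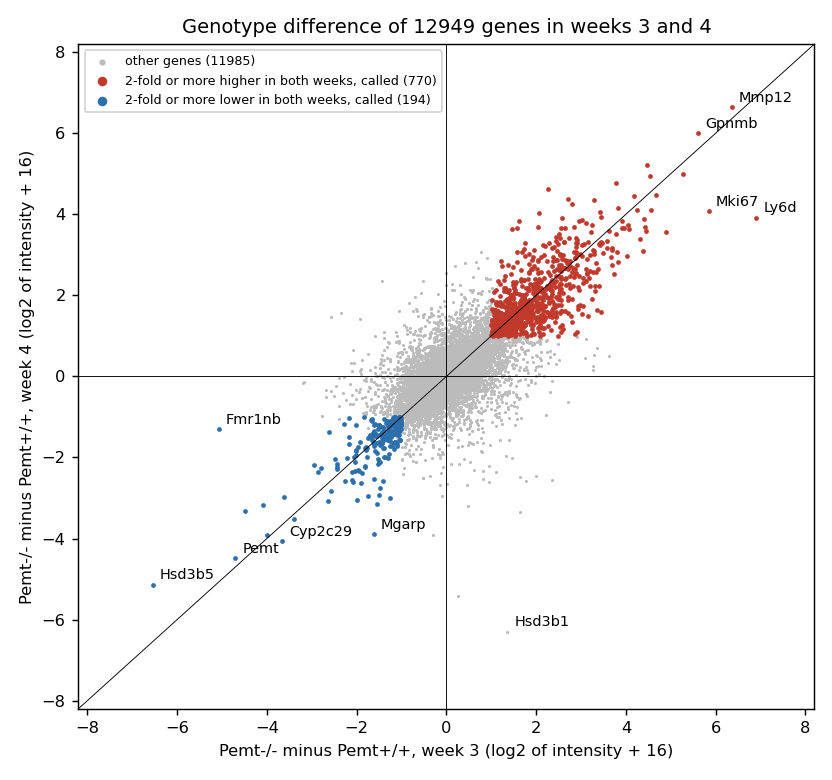
Difference between Pemt-/- and Pemt+/+ of each of 12949 genes in week 3 (x axis) and week 4 (y axis), in log2 of intensity + 16, with the 770 genes higher in both weeks in red, the 194 lower in both weeks in blue and the others in grey. Mmp12 and Gpnmb lie at the upper end near the diagonal and Hsd3b5 at the lower end, while Fmr1nb, Mgarp and the uncalled Hsd3b1, each high on 1 Pemt+/+ array, lie far from the diagonal.

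The targeted gene was among the largest falls. Pemt measured 201 and 255 in Pemt-/- and 5645 and 6045 in Pemt+/+, and the genotypes were far apart in each week. It was 24.2-fold lower in Pemt-/- (log2 difference -4.60 ± 0.15, adjusted p = 2.78e-06). The early difference of Pemt was -4.48, so the knockout was as visible in the early weeks. Of 30 tested genes of phosphatidylcholine and methyl group metabolism, 11 were called lower and 2 higher, with a median log2 difference of -0.39 (all genes tested 0.03). Chpt1, which makes phosphatidylcholine in the choline pathway, measured 3027 and 2438 in Pemt-/- and 7367 and 6431 in Pemt+/+ (log2 difference -1.34 ± 0.12, adjusted p = 0.000241) and was, with Pemt, the list's second gene lower in both weeks. Nnmt, which uses S-adenosylmethionine to methylate nicotinamide, measured 2948 and 1284 in Pemt-/- and 5869.6 and 5304 in Pemt+/+ (log2 difference -1.51 ± 0.22, adjusted p = 0.00268). Gnmt, the main consumer of surplus S-adenosylmethionine in liver, measured 20496 and 13510 in Pemt-/- and 36275 and 33200 in Pemt+/+ (log2 difference -1.06 ± 0.14, adjusted p = 0.00132), and Ahcy, which clears S-adenosylhomocysteine, measured 22023 and 17940 in Pemt-/- and 37781 and 31480 in Pemt+/+ (log2 difference -0.79 ± 0.10, adjusted p = 0.00153). Both were lower on each late Pemt-/- array than on either Pemt+/+ array, where 8404 of the 12949 genes tested had no overlap in either direction. The 2 members called higher were Lpcat2, a lysophosphatidylcholine acyltransferase of inflammatory cells (log2 difference 1.14 ± 0.25, adjusted p = 0.0167), and Pisd, which makes phosphatidylethanolamine in mitochondria (log2 difference 0.55 ± 0.13, adjusted p = 0.025). Mat1a, the liver's S-adenosylmethionine synthetase, measured 17201 and 11356 in Pemt-/- and 19834 and 15345 in Pemt+/+ and did not pass the test (log2 difference -0.32 ± 0.18, adjusted p = 0.281). The list's calls without week 3 were 7 lower and 0 higher, and without week 4 they were 6 lower and 0 higher.

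Genes of cell division held more rises than any other list examined. Of 35 tested genes of mitosis and G2/M, 34 were called higher and none lower, 32 of them in both weeks, and the median log2 difference was 3.10. Cdc20, which activates the anaphase-promoting complex, measured 3644 and 7573 in Pemt-/- and 150.3 and 188 in Pemt+/+ and was 28.6-fold higher (log2 difference 4.84 ± 0.25, adjusted p = 2.99e-05). Mki67, the Ki-67 proliferation marker, measured 1231 and 1568 in Pemt-/- and 5.75 and 77.7 in Pemt+/+ (log2 difference 4.96 ± 0.43, adjusted p = 0.000198). Its Pemt+/+ level in week 3 lay near the bottom of the scale, which made the difference of that week the larger one. Cdk1, the kinase that drives entry into mitosis, measured 988 and 1563 in Pemt-/- and 117 and 182 in Pemt+/+ (log2 difference 2.96 ± 0.18, adjusted p = 5.16e-05), and Stmn1, which destabilises microtubules, measured 4342 and 5659 in Pemt-/- and 744 and 822 in Pemt+/+ (log2 difference 2.64 ± 0.16, adjusted p = 5.64e-05). Anln, a scaffold of the contractile ring, measured 414 and 683 in Pemt-/- and 10.004 and 36.4 in Pemt+/+ (log2 difference 3.89 ± 0.27, adjusted p = 8.82e-05). In all of these the Pemt-/- array of week 4 was brighter than that of week 3. Ube2c, the ubiquitin-conjugating enzyme of the anaphase-promoting complex, and Birc5, known as survivin, rose 19.5-fold and 18.8-fold, and Ckap2, a spindle protein, rose 18.0-fold. Foxm1, a transcription factor of the mitotic genes, was the list's only gene that was not called, at 15.6 and 96.7 in Pemt-/- and 103 and 124 in Pemt+/+ (log2 difference -1.12 ± 0.46, adjusted p = 0.153). Its Pemt-/- value of week 3 lay near the bottom of the scale. The other Foxm1 probe set had the opposite sign and was not called either (log2 difference 0.18 ± 0.47, adjusted p = 0.844). Without week 3 the list had 31 members called higher and none lower. Without week 4 it had 31 higher and 1 lower, Foxm1 (-1.92, adjusted p = 0.0364).

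Genes of the G1/S transition and DNA replication moved less. Of 32 tested, 16 were called higher and 1 lower, with a median of 0.86, and 12 were higher in both weeks. Ccna2, cyclin A2, measured 1002 and 1249 in Pemt-/- and 75.4 and 113 in Pemt+/+ (log2 difference 3.38 ± 0.26, adjusted p = 0.000125). Ccnd1, cyclin D1, measured 4332 and 6612 in Pemt-/- and 682 and 2157 in Pemt+/+ (log2 difference 2.12 ± 0.23, adjusted p = 0.000617), and Mcm5, a subunit of the replicative helicase, measured 598 and 827 in Pemt-/- and 101 and 154 in Pemt+/+ (log2 difference 2.35 ± 0.31, adjusted p = 0.0016). Mcm10, a replication initiation factor, was called in the other direction, at 376 and 361 in Pemt-/- and 1583 and 1616 in Pemt+/+ (log2 difference -2.07 ± 0.16, adjusted p = 0.000118). It is represented by 1 probe set here. Pcna, the sliding clamp of DNA polymerase, differed by less than 2-fold (log2 difference 0.66 ± 0.14, adjusted p = 0.0155), and its call was lost without week 3 as well as without week 4 (0.58, adjusted p = 0.262). Leaving out week 3 or week 4 gave 11 higher and 1 lower each time. In the early weeks 21 of the 35 mitosis genes and 11 of the 32 replication genes were already called higher, beside 3.91% of all genes tested.

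Promoters of the mitosis genes with the smallest p are shown because genes of this group are known to share 2 short elements, the CHR (TTTGAA) and the CCAAT box (CCAAT). RefSeq promoter windows of assembly GRCm38 were matched by gene ID for 29 of the 35 genes and for 10404 of all genes tested, and the 250 bases before the first listed start were searched on both strands. The letters TTTGAA occurred in 11 of the 29 windows (37.9%), beside 10.9% of the windows of all genes tested, and CCAAT in 23 (79.3%), beside 35.9%. Capitals below mark both elements, on either strand. The Cdc20 window lies at chr4:118437344-118437593 and the Cdk1 window at chr10:69352913-69353162, both on the minus strand. The window of Anln, which came next in p among the genes with a window, held neither element.
Cdc20: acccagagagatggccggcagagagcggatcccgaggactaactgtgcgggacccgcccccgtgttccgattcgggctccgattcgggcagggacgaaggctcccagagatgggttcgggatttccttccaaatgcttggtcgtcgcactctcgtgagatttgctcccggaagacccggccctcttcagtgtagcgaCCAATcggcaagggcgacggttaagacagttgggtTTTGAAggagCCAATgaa
Cdk1: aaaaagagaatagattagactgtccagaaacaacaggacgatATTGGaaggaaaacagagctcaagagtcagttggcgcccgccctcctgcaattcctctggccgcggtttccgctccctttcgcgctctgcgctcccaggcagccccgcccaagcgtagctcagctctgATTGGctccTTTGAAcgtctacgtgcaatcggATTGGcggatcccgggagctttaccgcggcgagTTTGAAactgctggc
A match describes letters in this window and was not tested as a binding site.

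**Figure D2:**
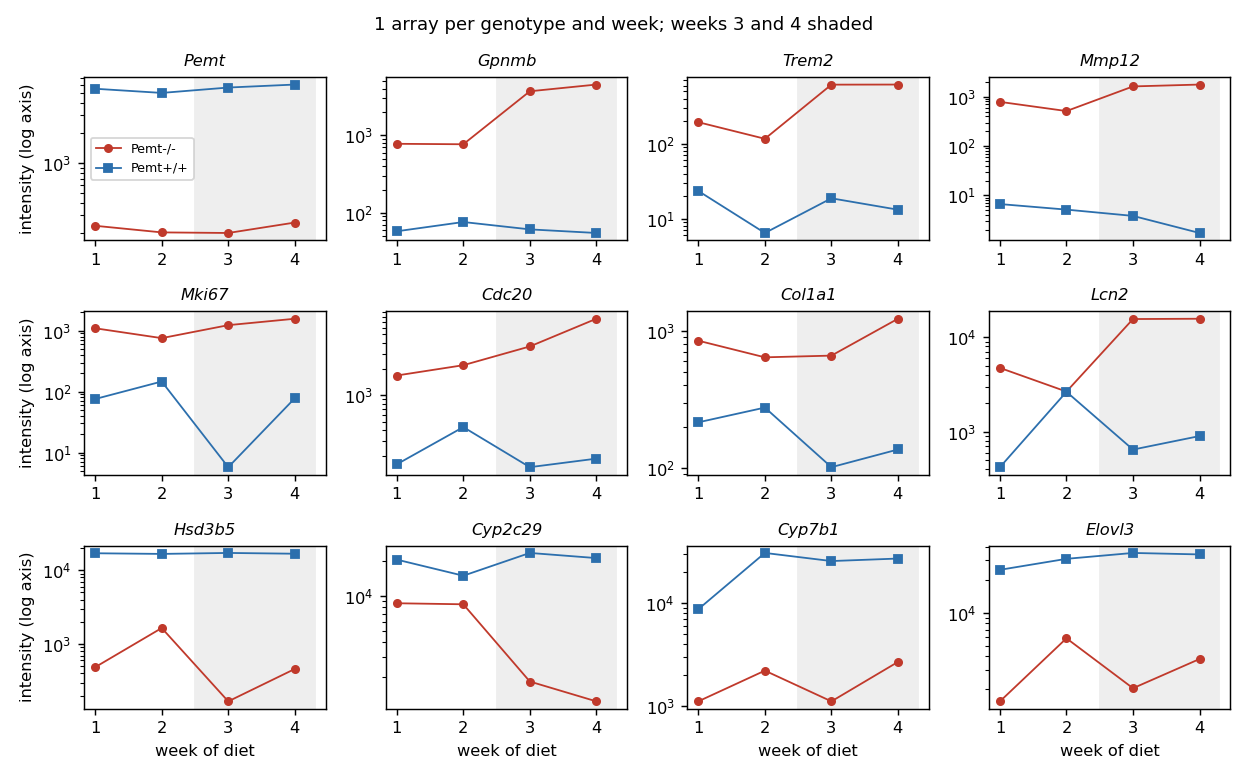
Intensity (log axis) of 12 genes on each of the 8 arrays by week of diet, with Pemt-/- as red circles and Pemt+/+ as blue squares, and the late weeks shaded. In the shaded weeks the genotypes do not overlap in any of the 12 genes, nor do they in 8404 of the 12949 genes tested. Gpnmb, Trem2 and Cyp2c29 show a step in Pemt-/- between weeks 2 and 3.

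Macrophage genes rose as well. Of 16 tested genes of lipid-associated macrophages, the cells that gather around fat-laden cells, 13 were called higher, all 13 in both weeks, and 1 lower, with a median of 2.61. Gpnmb, a membrane glycoprotein of lipid-loaded macrophages, measured 3714 and 4536 in Pemt-/- and 61.1 and 54.9 in Pemt+/+ and was 55.7-fold higher (log2 difference 5.80 ± 0.21, adjusted p = 4.76e-06). Mmp12, macrophage elastase, measured 1615 and 1762 in Pemt-/- and 3.85 and 1.74 in Pemt+/+ (log2 difference 6.50 ± 0.28, adjusted p = 1.05e-05), and its Pemt+/+ values were near the bottom of the scale. Trem2, a lipid-sensing receptor of these cells, measured 616 and 618 in Pemt-/- and 18.7 and 13.2 in Pemt+/+ (log2 difference 4.31 ± 0.32, adjusted p = 0.000104). On the other Trem2 probe set no call was made (log2 difference -0.06 ± 0.61, adjusted p = 0.961). Lgals3, which encodes galectin-3, measured 8064 and 9208 in Pemt-/- and 299 and 399.5 in Pemt+/+ (log2 difference 4.58 ± 0.14, adjusted p = 2.78e-06). Cd68, a lysosomal glycoprotein of macrophages, measured 1478 and 1461 in Pemt-/- and 213 and 221 in Pemt+/+ (log2 difference 2.67 ± 0.19, adjusted p = 9.65e-05). On every one of these genes the late Pemt-/- arrays were close to each other and several times brighter than both Pemt+/+ arrays. Fabp5, a fatty acid binding protein that hepatocytes and fat cells also make, was the one member called lower, at 5922 and 7565 in Pemt-/- and 10584 and 26528 in Pemt+/+ (log2 difference -1.32 ± 0.20, adjusted p = 0.00298), and its Pemt+/+ value was highest in week 4. Without week 3 or without week 4 the list kept its count, with 13 higher and 1 lower each time.

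General monocyte and myeloid genes rose with them: 18 of 19 were called higher and none lower, 17 in both weeks, with a median of 2.23. Lyz2, lysozyme of myeloid cells, measured 9900.1 and 10191 in Pemt-/- and 1072 and 1265 in Pemt+/+ (log2 difference 3.09 ± 0.13, adjusted p = 1.05e-05), Itgb2, the common chain of leukocyte integrins, measured 1399.5 and 1681 in Pemt-/- and 176 and 169.7 in Pemt+/+ (log2 difference 3.04 ± 0.18, adjusted p = 4.90e-05), and Ccr2, the receptor that draws monocytes from blood, measured 543 and 591 in Pemt-/- and 47.3 and 65.2 in Pemt+/+ (log2 difference 3.02 ± 0.24, adjusted p = 0.000148). Adgre1, the gene of F4/80, differed less, at 1121 and 1139 in Pemt-/- and 616 and 628 in Pemt+/+ (log2 difference 0.84 ± 0.17, adjusted p = 0.00995). Its difference stayed under 2-fold in both weeks, and the call was not made with week 3 left out (0.84, adjusted p = 0.109) or with week 4 left out (0.85, adjusted p = 0.108). The myeloid list had 17 called higher with either week left out. Genes of resident Kupffer cells did not move one way: of 13 tested, 3 were called higher and 3 lower, with a median of 0.15. Cd163, a haemoglobin scavenger receptor, measured 148 and 174 in Pemt-/- and 487 and 468 in Pemt+/+ (log2 difference -1.48 ± 0.20, adjusted p = 0.00161), and Timd4, a marker of long-lived Kupffer cells, measured 109 and 39.4 in Pemt-/- and 208 and 192 in Pemt+/+ (log2 difference -1.37 ± 0.29, adjusted p = 0.0148). Slc11a1, an iron transporter of phagosomes, was higher (log2 difference 1.63 ± 0.18, adjusted p = 0.000654), and so was Hmox1, heme oxygenase, which other cells also make (log2 difference 1.81 ± 0.26, adjusted p = 0.0024). The Kupffer list had 2 higher and 2 lower without week 3, and 3 higher and 1 lower without week 4, where Timd4 was not called (-0.84, adjusted p = 0.252). The summed intensity of 7 macrophage and monocyte markers was 24176 and 24852 in late Pemt-/- and 6699.6 and 7165 in late Pemt+/+. That of 5 Kupffer cell markers was 7136 and 5745 against 5558 and 6029.8, after 16047 and 13145 in early Pemt-/- and 8831 and 8379.7 in early Pemt+/+.

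Other leukocyte genes differed in part. The neutrophil list had 4 of 10 called higher, among them S100a8, at 434 and 563 in Pemt-/- and 41.5 and 55.5 in Pemt+/+ (log2 difference 2.99 ± 0.22, adjusted p = 0.000102), and S100a9 (log2 difference 2.92 ± 0.26, adjusted p = 0.000221), the subunits of calprotectin. With week 3 or week 4 left out the count was 3, and Elane, neutrophil elastase, lost its call without week 4 (0.98, adjusted p = 0.493). Elane was dim, at 64.2 and 84.6 in Pemt-/- and 24.7 and 3.08 in Pemt+/+, and its adjusted p was 0.0468 in the main limma fit. Its call was lost in 11 of the alternative settings, among them no filter, either other pseudocount and quantile normalization (1.72, adjusted p = 0.0519). None of 9 tested genes of T, B and NK cells was called by limma, with 2 at an unadjusted p under 0.05, and 7 further genes of the list were too dim to be tested. Summed over 8 markers of these lymphocytes, intensity was 579.8 and 658 in Pemt-/- and 432 and 561 in Pemt+/+. Of 10 genes of MHC class II presentation, 7 were higher and none lower, with a median of 1.24, and these became 5 without week 3 and 4 without week 4. H2-Aa, a class II chain, measured 11035 and 10133 in Pemt-/- and 2937 and 3178 in Pemt+/+ (log2 difference 1.79 ± 0.12, adjusted p = 7.81e-05), and Ctss, the protease that trims the invariant chain, measured 12613 and 13948 in Pemt-/- and 2698 and 3099 in Pemt+/+ (log2 difference 2.19 ± 0.12, adjusted p = 3.49e-05). Interferon response genes had 8 of 18 called higher and none lower, led by Oas1a, at 1918 and 1790.3 in Pemt-/- and 357 and 544 in Pemt+/+ (log2 difference 2.03 ± 0.22, adjusted p = 0.00058). Chemokine genes had 8 of 16 called higher and none lower. Ccl2, which attracts monocytes, measured 198 and 271 in Pemt-/- and 21.9 and 9.07 in Pemt+/+ (log2 difference 3.01 ± 0.44, adjusted p = 0.00238), and Cxcl10, an interferon-induced chemokine, measured 685 and 640.2 in Pemt-/- and 153 and 197 in Pemt+/+ (log2 difference 1.84 ± 0.23, adjusted p = 0.00121). Both were low in Pemt+/+ in each late week. Without week 4, interferon genes had 5 called higher and chemokines 4, and without week 3 these were 2 and 7.

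Matrix genes rose as a group. Of 33 tested genes of collagens and matrix, 27 were called higher, all 27 in both weeks, and none lower, with a median of 1.83. Col3a1, the type III collagen chain, measured 15235 and 18860 in Pemt-/- and 1849 and 2388 in Pemt+/+ (log2 difference 3.00 ± 0.14, adjusted p = 1.79e-05), and Col1a2, a type I chain, measured 7718 and 10102 in Pemt-/- and 693 and 1003 in Pemt+/+ (log2 difference 3.38 ± 0.17, adjusted p = 2.72e-05). Col5a2 and Col6a3, chains of types V and VI, rose 12.1-fold and 9.12-fold, and Lum, the proteoglycan lumican, rose 5.96-fold. Mmp13, a collagenase, measured 380.5 and 384 in Pemt-/- and 3.09 and 30.7 in Pemt+/+ (log2 difference 3.74 ± 0.41, adjusted p = 0.000674), and Timp1, an inhibitor of such proteases, measured 394 and 578 in Pemt-/- and 91.5 and 114 in Pemt+/+ (log2 difference 2.06 ± 0.29, adjusted p = 0.00199). All 7 of these genes had non-overlapping genotypes in the late weeks, as had 8404 of the 12949 genes tested. Vcan and Thbs1, a proteoglycan and a secreted glycoprotein, did not pass the test, with log2 differences of -0.73 and 0.08. Without week 3 the list had 27 called higher and without week 4 it had 25.

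Of 18 stellate cell genes, 11 were called higher and none lower, with a median of 1.22. Vim, vimentin, measured 4726 and 5693 in Pemt-/- and 735 and 1051 in Pemt+/+ (log2 difference 2.54 ± 0.18, adjusted p = 8.82e-05), and Pdgfrb, the receptor of stellate cells for PDGF, measured 2193 and 3075 in Pemt-/- and 648 and 581 in Pemt+/+ (log2 difference 2.05 ± 0.18, adjusted p = 0.000229). Acta2, which encodes alpha smooth muscle actin, measured 1343 and 2151 in Pemt-/- and 456 and 639 in Pemt+/+ (log2 difference 1.63 ± 0.15, adjusted p = 0.000249). Lrat, which stores vitamin A in quiescent stellate cells, was called with a smaller difference, at 713 and 909 in Pemt-/- and 450.04 and 541 in Pemt+/+ (log2 difference 0.69 ± 0.16, adjusted p = 0.0208), and lost its call under quantile normalization (0.55, adjusted p = 0.0604) and with week 3 (0.73, adjusted p = 0.19) or week 4 (0.64, adjusted p = 0.288) left out. The stellate list had 8 called higher without week 3 and 10 without week 4. Tgfb1 did not pass the test, at 111 and 120.0 in Pemt-/- and 36.9 and 78.9 in Pemt+/+ (log2 difference 0.89 ± 0.39, adjusted p = 0.17). Summed over 6 stellate markers, intensity was 10964 and 13429 in Pemt-/- and 4405 and 4614 in Pemt+/+. Sinusoidal endothelial genes had 1 of 22 called higher and 5 lower, beside 11.9% and 7.27% of all genes tested, with a median of -0.18. The gene called higher was Plvap, a marker of vessels that lose sinusoidal identity (log2 difference 1.05 ± 0.15, adjusted p = 0.00202). Clec4g, a lectin of sinusoidal endothelium, measured 1992 and 1446 in Pemt-/- and 3139 and 3216 in Pemt+/+ (log2 difference -0.90 ± 0.15, adjusted p = 0.00421), and Kdr, a VEGF receptor, measured 473 and 354 in Pemt-/- and 792 and 730.5 in Pemt+/+ (log2 difference -0.87 ± 0.17, adjusted p = 0.0106). Summed over 5 endothelial markers, intensity was 3909.6 and 2919 in Pemt-/- and 5136 and 5109 in Pemt+/+, with Clec4g the brightest. Besides Clec4g, Kdr was lower, while Lyve1 was higher, at 487 and 412 in Pemt-/- and 368 and 274 in Pemt+/+. The genotypes overlapped for Stab2 (852 and 569 against 726 and 765) and Pecam1 (105 and 137 against 111 and 123). Without week 4 none of the 22 was called, and without week 3 there were 1 higher and 2 lower. Of 13 genes of bile duct and progenitor cells, 5 were called higher and none lower, among them Cd24a, at 870.0 and 976 in Pemt-/- and 160.3 and 195 in Pemt+/+ (log2 difference 2.28 ± 0.19, adjusted p = 0.000152), and Krt19, a keratin of bile ducts, at 173 and 259 in Pemt-/- and 78.8 and 62.2 in Pemt+/+ (log2 difference 1.40 ± 0.33, adjusted p = 0.0233). Without week 4 the bile duct list had 2 called, and Krt19 was not among them (0.99, adjusted p = 0.309).

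Stress response genes rose in the p53, ATF4 and NRF2 lists. Of 23 p53 targets, 14 were higher and none lower, with a median of 1.09. Cdkn1a, the cell cycle inhibitor p21, measured 3297 and 3586 in Pemt-/- and 439.6 and 563 in Pemt+/+ and was 6.73-fold higher (log2 difference 2.75 ± 0.34, adjusted p = 0.00109). Phlda3, which restrains Akt signalling, measured 702 and 825 in Pemt-/- and 106 and 258 in Pemt+/+ (log2 difference 2.09 ± 0.28, adjusted p = 0.00171), and Trp53inp1, which acts with p53 and in autophagy, measured 7948 and 10900 in Pemt-/- and 3864 and 4466 in Pemt+/+ (log2 difference 1.16 ± 0.12, adjusted p = 0.00044). The other Trp53inp1 probe set was not called (log2 difference -0.18 ± 0.41, adjusted p = 0.829). Apaf1, the core of the apoptosome, rose 2.95-fold on its brightest probe set, while its other probe set was not called (log2 difference 0.48 ± 0.42, adjusted p = 0.515). Of 20 genes of the ATF4 stress response, 13 were higher and 1 lower, with a median of 1.31. Atf3, a stress transcription factor, measured 964 and 2036 in Pemt-/- and 87.9 and 139 in Pemt+/+ (log2 difference 3.48 ± 0.22, adjusted p = 6.25e-05), and Trib3, a pseudokinase induced by amino acid shortage, measured 686 and 1655 in Pemt-/- and 98.3 and 152 in Pemt+/+ (log2 difference 2.97 ± 0.23, adjusted p = 0.000128). Asns, asparagine synthetase, measured 730.1 and 803 in Pemt-/- and 90.7 and 203 in Pemt+/+ (log2 difference 2.35 ± 0.28, adjusted p = 0.000935), and Ddit3, known as CHOP, measured 1673 and 2682 in Pemt-/- and 514 and 418 in Pemt+/+ (log2 difference 2.15 ± 0.37, adjusted p = 0.0052). Cth, which makes cysteine and is abundant in hepatocytes, was the member called lower (log2 difference -0.48 ± 0.11, adjusted p = 0.0174), a call that was lost under quantile normalization (-0.22, adjusted p = 0.15). The Cth call was also lost without week 3 (-0.54) and without week 4 (-0.41). Atf4 itself measured 4554 and 6459 in Pemt-/- and 3644 and 4726 in Pemt+/+ and its brightest probe set did not pass the test (log2 difference 0.38 ± 0.13, adjusted p = 0.094), while the other probe set of Atf4 was called higher.

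Chaperones of the endoplasmic reticulum held no call upward. None of 17 was called higher by limma, with 0 higher and 5 lower at an unadjusted p under 0.05. In the early weeks 5 were called lower, beside 1.63% of all genes tested. In the late weeks Calr, calreticulin, was called lower (log2 difference -0.44 ± 0.11, adjusted p = 0.0318), a call that was lost under quantile normalization (-0.19, adjusted p = 0.245). Hspa5, the chaperone BiP, measured 25989 and 26344 in Pemt-/- and 26546 and 28468 in Pemt+/+ (log2 difference -0.07 ± 0.10, adjusted p = 0.707), and under quantile normalization its difference lay above 0 (0.28, adjusted p = 0.131). Of 18 targets of NRF2, the regulator of antioxidant genes, 13 were higher and none lower, with a median of 0.91. Gstm3, a glutathione transferase, measured 14467 and 17026 in Pemt-/- and 2161 and 1591 in Pemt+/+ (log2 difference 3.07 ± 0.16, adjusted p = 2.99e-05). Cbr3, a carbonyl reductase, measured 1346 and 1519.5 in Pemt-/- and 52.0 and 131 in Pemt+/+ (log2 difference 3.85 ± 0.30, adjusted p = 0.000137), and Nqo1, a quinone reductase, measured 409.9 and 466 in Pemt-/- and 261 and 171 in Pemt+/+ (log2 difference 0.99 ± 0.26, adjusted p = 0.0329), a call that was lost without week 4 (0.62, adjusted p = 0.471). The metallothioneins Mt1 and Mt2, which bind zinc and stood on the acute phase list, rose 9.16-fold and 14.4-fold. Without week 3 and without week 4 the p53 list had 9 and 10 called higher, the ATF4 list 11 and 11, and the NRF2 list 8 and 6, while no chaperone was called in either case.

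Lysosome genes had 12 of 20 called higher and 1 lower, with a median of 0.53. Ctsd, a lysosomal protease, measured 8944 and 9208 in Pemt-/- and 4097 and 4265 in Pemt+/+ (log2 difference 1.12 ± 0.11, adjusted p = 0.000379), and Lamp2, a lysosomal membrane protein, was the one called lower (log2 difference -0.54 ± 0.10, adjusted p = 0.00829), which was lost under quantile normalization (-0.28, adjusted p = 0.0632). Among 16 annexins and tubulins, 12 were higher and 1 lower. Anxa2, a membrane-binding annexin, measured 10085 and 12054 in Pemt-/- and 718 and 1035 in Pemt+/+ (log2 difference 3.65 ± 0.14, adjusted p = 4.76e-06). The other Anxa2 probe set was not called (log2 difference 0.51 ± 0.27, adjusted p = 0.268). Tubb2b, a tubulin chain, measured 441 and 664 in Pemt-/- and 5.26 and 36.8 in Pemt+/+ (log2 difference 4.06 ± 0.37, adjusted p = 0.000262). Tuba4a, an alpha tubulin, was called lower (log2 difference -0.79 ± 0.11, adjusted p = 0.00238), but not without week 3 (-0.75, adjusted p = 0.0632). With either late week left out, the lysosome list had 7 higher and none lower, and 8 annexins and tubulins were higher.

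The cholesterol synthesis pathway fell almost as a whole. Of 20 tested genes, 19 were called lower and none higher, 9 of them in both weeks, with a median log2 difference of -1.16. The median was -1.50 in week 3 and -0.98 in week 4. Tm7sf2, a sterol reductase, measured 2263 and 1960.4 in Pemt-/- and 9459 and 7849.5 in Pemt+/+ (log2 difference -2.02 ± 0.16, adjusted p = 0.000128). Pmvk, phosphomevalonate kinase, measured 950.4 and 906 in Pemt-/- and 2905 and 2899 in Pemt+/+ (log2 difference -1.63 ± 0.14, adjusted p = 0.000198). Fdps, which makes farnesyl diphosphate, measured 3210.1 and 3166 in Pemt-/- and 12996 and 11441 in Pemt+/+ (log2 difference -1.93 ± 0.21, adjusted p = 0.000552), and Sqle, squalene epoxidase, measured 1394 and 2106 in Pemt-/- and 4442 and 4566 in Pemt+/+ (log2 difference -1.39 ± 0.16, adjusted p = 0.000709). Insig1, the sterol-sensing anchor of SREBP, measured 5933 and 5485 in Pemt-/- and 13687 and 14922 in Pemt+/+ (log2 difference -1.32 ± 0.12, adjusted p = 0.000235). On all 5 genes both Pemt-/- arrays were dimmer than either Pemt+/+ array, where 8404 of the 12949 genes tested had no overlap in either direction. Srebf2, the transcription factor of the pathway, was the list's one gene that was not called (log2 difference -0.24 ± 0.19, adjusted p = 0.469). In the early weeks 1 of the 20 was called lower, beside 1.63% of all genes tested, and the early median was -0.32. The late minus early difference was below 0 in 19 of 20, with a median of -1.03, and no member passed the test of that difference by limma, while 18 had an unadjusted p under 0.05. Within a genotype, the median of the 20 genes fell by 0.48 from the early to the late weeks in Pemt-/- and was 0.51 higher in the late weeks in Pemt+/+. Without week 4, 19 members were called lower, and without week 3 there were 12.

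Promoters of the 3 pathway genes with the smallest p are shown because SREBP is known to act beside NF-Y, which binds the CCAAT box. The 250 bases before the first RefSeq start (GRCm38) held CCAAT on either strand in 15 of the 16 genes matched (93.8%), beside 35.9% of all genes tested. The sterol element of the LDL receptor type, searched as TCACNCCAC on both strands, occurred in 1 of 16 (6.25%), beside 0.971% of all genes tested. Capitals mark CCAAT, on either strand. The windows lie at chr19:6067851-6068100 on the minus strand for Tm7sf2, at chr3:89454291-89454540 on the plus strand for Pmvk, which has 2 listed starts, and at chr5:28071162-28071411 on the plus strand for Insig1.
Tm7sf2: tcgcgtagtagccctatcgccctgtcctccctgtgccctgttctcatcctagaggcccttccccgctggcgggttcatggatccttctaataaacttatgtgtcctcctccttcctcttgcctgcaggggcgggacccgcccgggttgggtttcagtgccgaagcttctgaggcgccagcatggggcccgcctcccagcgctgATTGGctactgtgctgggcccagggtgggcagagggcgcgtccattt
Pmvk: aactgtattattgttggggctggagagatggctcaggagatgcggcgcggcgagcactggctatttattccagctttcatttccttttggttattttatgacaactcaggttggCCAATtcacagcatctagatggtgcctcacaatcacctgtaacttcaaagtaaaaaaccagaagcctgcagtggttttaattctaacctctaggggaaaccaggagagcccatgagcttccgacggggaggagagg
Insig1: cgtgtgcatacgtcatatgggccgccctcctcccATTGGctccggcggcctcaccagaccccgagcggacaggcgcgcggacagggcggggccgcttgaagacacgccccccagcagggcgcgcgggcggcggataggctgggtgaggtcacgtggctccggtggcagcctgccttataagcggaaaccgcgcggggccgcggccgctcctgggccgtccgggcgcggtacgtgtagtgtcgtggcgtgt
None of the 3 windows held TCACNCCAC, which says only that these letters are not in them.

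**Figure D3:**
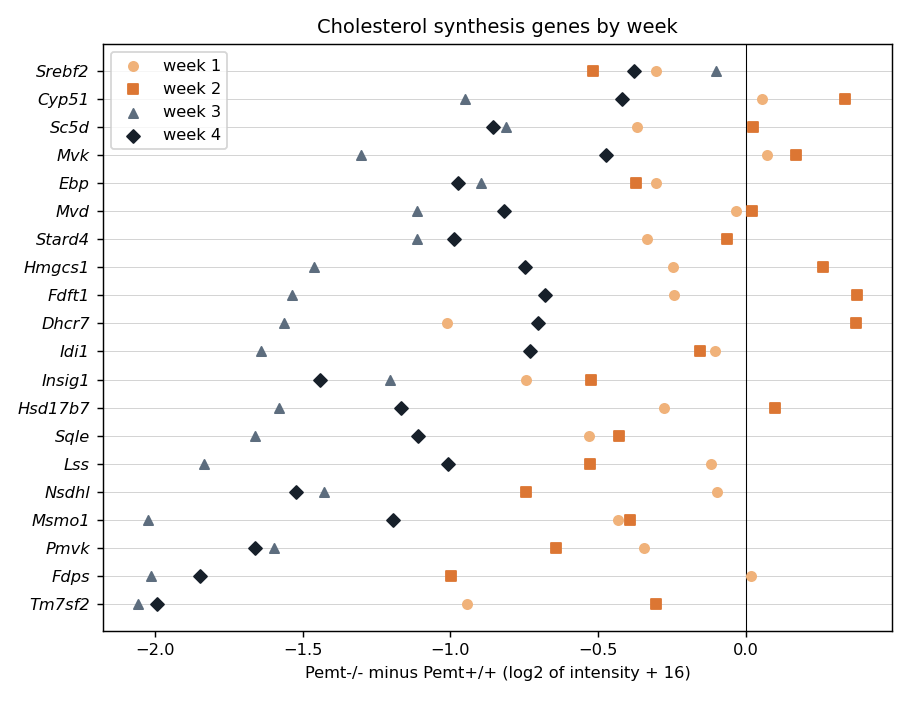
Difference between Pemt-/- and Pemt+/+ of the 20 tested cholesterol synthesis genes in each week, in log2 of intensity + 16, with 1 marker shape per week. The markers of weeks 3 and 4 lie left of those of weeks 1 and 2 for most genes, and the late median of -1.16 compares with an early median of -0.32.

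Fatty acid and triglyceride synthesis fell too. Of 24 genes, 15 were called lower and none higher, with a median of -0.73. Acss2, which makes acetyl-CoA from acetate, measured 3412 and 2823 in Pemt-/- and 13153 and 14383 in Pemt+/+ (log2 difference -2.14 ± 0.14, adjusted p = 6.36e-05). Acly, ATP citrate lyase, measured 7179 and 6924 in Pemt-/- and 18419 and 20134 in Pemt+/+ (log2 difference -1.45 ± 0.12, adjusted p = 0.000148), and Acacb, an acetyl-CoA carboxylase, measured 607 and 619 in Pemt-/- and 2162 and 2964 in Pemt+/+ (log2 difference -2.02 ± 0.18, adjusted p = 0.000214). Fasn, fatty acid synthase, measured 6815 and 5585 in Pemt-/- and 12048 and 14993 in Pemt+/+ (log2 difference -1.12 ± 0.16, adjusted p = 0.00241), and Srebf1, the transcription factor of the pathway, measured 5025 and 4271 in Pemt-/- and 8497 and 8193 in Pemt+/+ (log2 difference -0.85 ± 0.15, adjusted p = 0.00727). For each of them both Pemt-/- arrays lay below both Pemt+/+ arrays, beside a lack of overlap, in either direction, in 8404 of the 12949 genes tested. Acaca and Fads1, the other acetyl-CoA carboxylase and a desaturase, had log2 differences of 0.33 and 0.03 and did not pass the test. Without week 3 and without week 4 the list had 14 and 9 called lower. Lipid droplet genes had 4 of 17 called higher and 2 lower, beside 11.9% and 7.27% of all genes tested. The 2 falls were not far from that share. Their median of -0.10 over the 17 genes became 0.17 under quantile normalization. Cidec, which enlarges droplets, measured 942 and 1145 in Pemt-/- and 58.5 and 156 in Pemt+/+ (log2 difference 3.22 ± 0.28, adjusted p = 0.000202), Cd36, a fatty acid receptor, measured 3449.6 and 3225 in Pemt-/- and 827 and 906 in Pemt+/+ (log2 difference 1.93 ± 0.14, adjusted p = 0.000104), and Pparg, a transcription factor of fat storage, measured 502 and 536 in Pemt-/- and 89.5 and 138 in Pemt+/+ (log2 difference 2.07 ± 0.26, adjusted p = 0.00123). G0s2, an inhibitor of the lipase ATGL, measured 2808 and 5136 in Pemt-/- and 13797 and 11705 in Pemt+/+ (log2 difference -1.74 ± 0.38, adjusted p = 0.0154). Without week 3 the call on G0s2 was lost (-1.19, adjusted p = 0.0549), and the list had 3 higher and none lower. Without week 4 it had 3 higher and 1 lower.

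Fatty acid oxidation genes were split, with 3 of 20 higher and 5 lower, beside 11.9% and 7.27% of all genes tested, so that the share of rises was near that of all genes. Acot2, a mitochondrial acyl-CoA thioesterase, measured 1382 and 1535 in Pemt-/- and 372 and 401 in Pemt+/+ (log2 difference 1.87 ± 0.15, adjusted p = 0.000149). Fgf21, a liver hormone of fasting and stress, measured 2081 and 8313 in Pemt-/- and 491 and 634 in Pemt+/+ (log2 difference 2.86 ± 0.60, adjusted p = 0.0136), with a wide gap between its Pemt-/- arrays. Ppara, the transcription factor of these genes, was lower (log2 difference -0.86 ± 0.12, adjusted p = 0.00171), and so was Ehhadh, a peroxisomal enzyme (log2 difference -0.91 ± 0.13, adjusted p = 0.00244). Without week 3 there were 3 higher and 1 lower, and Ehhadh was not called (-0.70, adjusted p = 0.0926). Without week 4 there were 2 higher and 4 lower. In the early weeks 6 of the 20 were called higher, beside 3.91% of all genes tested, and none lower. The late minus early difference lay below 0 in all 20 genes, with a median of -0.36, beside 0.03 for all genes tested.

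Genes of bile acid synthesis and transport had 14 of 23 called lower and 4 higher, with a median of -0.71. Cyp7b1, of the alternative pathway of synthesis, measured 1110.0 and 2675 in Pemt-/- and 25383 and 26847 in Pemt+/+ (log2 difference -3.91 ± 0.27, adjusted p = 8.47e-05). Cyp8b1, which makes cholic acid, measured 2059 and 576 in Pemt-/- and 9967 and 3527 in Pemt+/+ (log2 difference -2.42 ± 0.36, adjusted p = 0.00257), with high and low values in the same weeks for both genotypes. Slc10a1, the main uptake carrier of bile acids, measured 8844 and 5799 in Pemt-/- and 21274 and 19069 in Pemt+/+ (log2 difference -1.49 ± 0.13, adjusted p = 0.000198). Nr0b2, the receptor SHP that restrains synthesis, measured 1732 and 913 in Pemt-/- and 4993 and 4164 in Pemt+/+ (log2 difference -1.84 ± 0.17, adjusted p = 0.000248). The members called higher were carriers: Slco1a4 (log2 difference 1.72 ± 0.18, adjusted p = 0.000552), Abcc4 (log2 difference 1.07 ± 0.24, adjusted p = 0.0188), Abcb4, which moves phosphatidylcholine into bile (log2 difference 0.43 ± 0.12, adjusted p = 0.0434), and Abcc2 (log2 difference 0.39 ± 0.11, adjusted p = 0.0476). Abcc4, Abcb4 and Abcc2 lost their call both without week 3 and without week 4. The whole list then had 10 and 9 called lower.

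Cytochrome P450 and conjugating enzymes were lower in 17 of 26, and none was higher, with a median of -0.67. Cyp2c29 measured 1836 and 1240.2 in Pemt-/- and 23376 and 21116 in Pemt+/+ and was 14.6-fold lower (log2 difference -3.87 ± 0.15, adjusted p = 4.76e-06). Cyp2c37 measured 946 and 787 in Pemt-/- and 15343 and 12009 in Pemt+/+ (log2 difference -3.95 ± 0.32, adjusted p = 0.000148), and Cyp2c54 measured 1582 and 826 in Pemt-/- and 16767 and 9645 in Pemt+/+ (log2 difference -3.46 ± 0.44, adjusted p = 0.00128). These are paralogs of 1 gene cluster whose probe sets can share signal, so that their separate values are uncertain. Cyp3a25 and Cyp1a2, of other P450 families, fell by less (log2 difference -0.96 ± 0.10, adjusted p = 0.000525 and log2 difference -0.91 ± 0.12, adjusted p = 0.00162). Without week 3 and without week 4 there were 10 members called lower each time.

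All 14 tested male-biased liver genes were called lower, 8 of them in both weeks, with a median of -1.57. The list holds genes that male mice express more, and all mice here were male per the methods. Hsd3b5, a steroid dehydrogenase, measured 167 and 460.0 in Pemt-/- and 17150 and 16738 in Pemt+/+ and was 57.4-fold lower (log2 difference -5.84 ± 0.40, adjusted p = 8.47e-05), the largest fall among the genes tested. Slco1a1, an organic anion carrier, measured 2495 and 2308 in Pemt-/- and 13533 and 11258 in Pemt+/+ (log2 difference -2.35 ± 0.12, adjusted p = 2.72e-05), and Elovl3, a fatty acid elongase, measured 2052 and 3788 in Pemt-/- and 35132 and 34057 in Pemt+/+ (log2 difference -3.63 ± 0.33, adjusted p = 0.000237). Cyp7b1, which stands on this list too, and Ugt2b38, a glucuronosyltransferase (log2 difference -2.56 ± 0.22, adjusted p = 0.000206), had the same direction. Of 15 tested female-biased genes, 4 were called higher and none lower, with a median of 0.64. One of them, Atp6v0d2, is also a gene of lipid-associated macrophages and was 5.82-fold higher. Abcd2, a peroxisomal transporter, measured 239.5 and 143 in Pemt-/- and 45.0 and 58.6 in Pemt+/+ (log2 difference 1.58 ± 0.30, adjusted p = 0.00829), and 1 of its 4 probe sets was called. In the early weeks 11 of the 14 male-biased genes were called lower, beside 1.63% of all genes tested. Early calls upward were made for 6 of the 15 female-biased genes, beside 3.91%, and the early median of that list was 1.27. Without week 3 and without week 4 the male-biased list had 9 and 12 called lower. The female-biased list had 1 higher and 1 lower without week 3, where Abcd2 was not called (1.09, adjusted p = 0.139). It had 4 higher without week 4, although Nipal1, a magnesium transporter, and Trim24, a transcriptional cofactor, which were called in the whole comparison, were not among them.

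Genes of other hepatocyte functions were lower as well. Of 31 plasma protein genes, 24 were called lower and none higher, with a median of -0.50, and 2 differed in both weeks. Igf1 measured 10656 and 8305 in Pemt-/- and 17703 and 17044 in Pemt+/+ (log2 difference -0.88 ± 0.11, adjusted p = 0.00141), and C8b, a complement chain that stands on the male-biased list too, measured 3928 and 4149 in Pemt-/- and 9728 and 9814 in Pemt+/+ (log2 difference -1.27 ± 0.13, adjusted p = 0.000388). Alb was called lower (log2 difference -0.44 ± 0.10, adjusted p = 0.0176), and under quantile normalization its difference lay near 0 (0.01, adjusted p = 0.952). Without week 3 the list had 5 called lower, without week 4 it had 3 and under quantile normalization 9. In week 3 and in week 4 the list's median was -0.51 and -0.50. Of 25 genes of the urea cycle and amino acid breakdown, 20 were lower and none higher, with a median of -0.77, which became 15 without week 3 and 4 without week 4. Haao, of tryptophan breakdown, measured 6031 and 4366 in Pemt-/- and 14412 and 13102 in Pemt+/+ (log2 difference -1.42 ± 0.15, adjusted p = 0.000599), and Oat, ornithine aminotransferase, measured 5764 and 4569 in Pemt-/- and 14475 and 12992 in Pemt+/+ (log2 difference -1.42 ± 0.18, adjusted p = 0.00126). Beside these groups, the summed intensity of 6 hepatocyte markers was 190660 and 183020 in late Pemt-/- and 272350 and 252430 in late Pemt+/+. Their part in the falls of single genes was not tested.

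Acute phase genes were divided, with 6 of 25 higher and 11 lower. Lcn2, lipocalin-2, measured 15593 and 15705 in Pemt-/- and 646 and 899 in Pemt+/+ (log2 difference 4.33 ± 0.60, adjusted p = 0.00199), Saa3, a serum amyloid that macrophages also make, measured 2968 and 3279 in Pemt-/- and 579.6 and 1467 in Pemt+/+ (log2 difference 1.74 ± 0.24, adjusted p = 0.00187), and Orm2, an orosomucoid, measured 3878 and 3361 in Pemt-/- and 898 and 1205 in Pemt+/+ (log2 difference 1.78 ± 0.35, adjusted p = 0.0106). The fibrinogen chain Fgb, at 33494 and 34023 in Pemt-/- and 53589 and 53554 in Pemt+/+ (log2 difference -0.67 ± 0.09, adjusted p = 0.00199), and Saa4 (log2 difference -1.27 ± 0.12, adjusted p = 0.000293) were lower, and Fgb lost its call under quantile normalization (-0.24, adjusted p = 0.0863) and with either late week left out. Without week 3, without week 4 or under quantile normalization the acute phase list had 6 higher and 2 lower. Of 17 hepatocyte transcription factors, 4 were lower and none higher. Nr0b2, given above, was 1 of them, and Hnf4a, a master regulator of the hepatocyte, measured 8209 and 6642 in Pemt-/- and 13017 and 11298 in Pemt+/+ (log2 difference -0.71 ± 0.12, adjusted p = 0.00432), while Cebpa (log2 difference -0.82 ± 0.13, adjusted p = 0.00367) and Ppara made up the rest. Of the 4 probe sets of Hnf4a, 2 were called lower. Leaving out week 3 ended the call on Hnf4a (-0.76, adjusted p = 0.0624), as did leaving out week 4 (-0.66, adjusted p = 0.121). The whole list had 3 lower without week 3 and 2 without week 4. Genes of glucose and glycogen had 8 of 19 lower and 2 higher, which became 4 and 1 without week 3 and 2 and 2 without week 4. Ppp1r3c, which targets a phosphatase to glycogen, measured 5710.4 and 6523 in Pemt-/- and 15356 and 16858 in Pemt+/+ (log2 difference -1.40 ± 0.11, adjusted p = 0.000118), and Igfbp1, a binding protein of insulin-like growth factors, measured 14503 and 23293 in Pemt-/- and 8349.6 and 5378 in Pemt+/+ (log2 difference 1.45 ± 0.32, adjusted p = 0.017), a call that was lost without week 4 (0.80, adjusted p = 0.136).

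**Figure D4:**
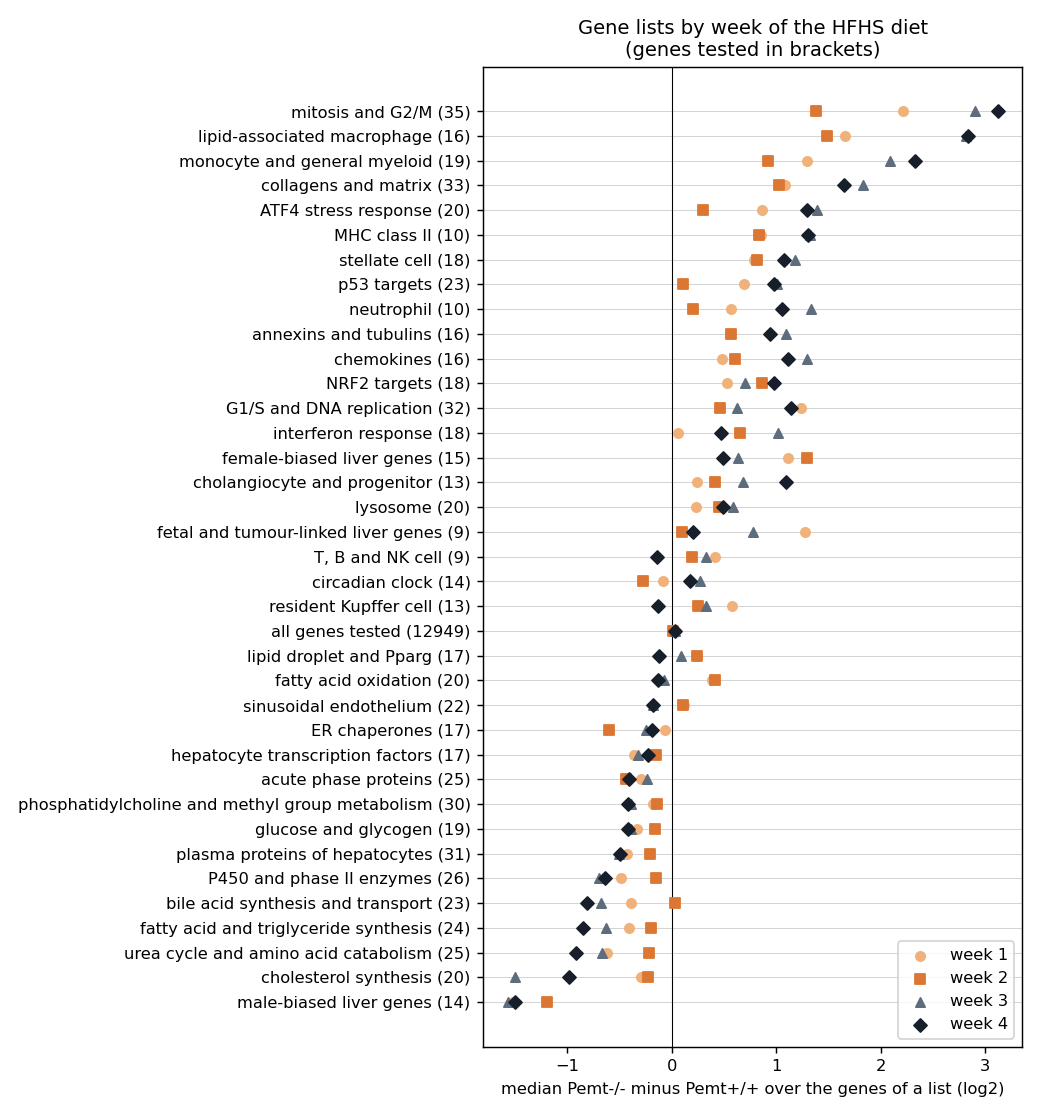
Median difference between Pemt-/- and Pemt+/+ of each gene list (log2, number of genes tested in brackets) in weeks 1 to 4, with 1 marker shape per week and all genes tested as 1 row. In the late weeks the medians of mitosis and G2/M were 2.91 and 3.12, those of lipid-associated macrophages 2.82 and 2.83, those of cholesterol synthesis -1.50 and -0.98, and those of all genes tested 0.03 and 0.03.

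Of 9 genes linked to fetal liver and liver tumours, 4 were higher and 1 lower. Afp, alpha-fetoprotein, measured 460.2 and 515 in Pemt-/- and 93.7 and 72.7 in Pemt+/+ (log2 difference 2.35 ± 0.24, adjusted p = 0.000506), and Golm1, a Golgi protein, measured 806 and 1025 in Pemt-/- and 134 and 126 in Pemt+/+ (log2 difference 2.67 ± 0.33, adjusted p = 0.0011). Of the 3 probe sets of Afp, 2 were called higher and the other was not (log2 difference 1.07 ± 0.40, adjusted p = 0.113). Cd34, a marker of capillary endothelium, and Lcn2 were the other list members called higher. Lgr5, a receptor of the hepatocytes around central veins, was called lower (log2 difference -0.80 ± 0.21, adjusted p = 0.0341), and neither leaving out week 3 (-0.55, adjusted p = 0.459) nor week 4 (-1.05, adjusted p = 0.0699) kept that call. The count of rises was 3 without week 3, where Cd34 was lost, and 4 without week 4. Only Per1, of 14 clock genes, was called (log2 difference 1.45 ± 0.40, adjusted p = 0.0447), with a wide gap between its Pemt+/+ arrays, and the call was lost without week 3 (0.81, adjusted p = 0.369). Alas2, the erythroid gene of heme synthesis, measured 570.3 and 486 in Pemt-/- and 1804 and 1487 in Pemt+/+ (log2 difference -1.61 ± 0.19, adjusted p = 0.000822) and was the sole erythroid gene tested. Cela1, an elastase known from pancreas, measured 1279 and 1182 in Pemt-/- and 2759.8 and 2964 in Pemt+/+ (log2 difference -1.21 ± 0.14, adjusted p = 0.000709) on arrays where Prss2, a trypsinogen, measured 10.9 and 39.8 in Pemt-/- and 86.6 and 35.2 in Pemt+/+ and was not called.

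Among the genes followed by the study, Cltc, the clathrin heavy chain, measured 10775 and 11625 in Pemt-/- and 7648 and 8796 in Pemt+/+ and differed by 1.36-fold (log2 difference 0.45 ± 0.11, adjusted p = 0.0231), a call that was lost without week 3 and without week 4. Akt1, a kinase of growth signalling, measured 709.6 and 697 in Pemt-/- and 469 and 510.3 in Pemt+/+ and did not pass the test (log2 difference 0.51 ± 0.17, adjusted p = 0.0836). Fbxo31, an F-box protein that targets cyclin D1, measured 405 and 260.4 in Pemt-/- and 495 and 386 in Pemt+/+ on its brightest probe set. There the range of Pemt-/- and that of Pemt+/+ overlapped and no call was made (log2 difference -0.41 ± 0.20, adjusted p = 0.216). The other of its 2 probe sets was called lower (log2 difference -1.26 ± 0.20, adjusted p = 0.00401). Bax is not analysed here.

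Several of the largest rises in both weeks had not been part of the groups above or stood apart in them. Ly6d, a surface protein of epithelial cells that stood on the bile duct list, measured 7570.0 and 8399 in Pemt-/- and 47.3 and 542 in Pemt+/+ (log2 difference 5.41 ± 0.53, adjusted p = 0.000371). D17H6S56E-5, which has little annotation, measured 5228 and 7444 in Pemt-/- and 120.5 and 216 in Pemt+/+ (log2 difference 5.13 ± 0.19, adjusted p = 4.76e-06). Ubd, a ubiquitin-like protein induced by inflammatory cytokines, measured 2075 and 2166 in Pemt-/- and 73.8 and 54.6 in Pemt+/+ (log2 difference 4.75 ± 0.29, adjusted p = 5.10e-05), and Spink1, a trypsin inhibitor, measured 2128 and 1997 in Pemt-/- and 84.8 and 119 in Pemt+/+ (log2 difference 4.15 ± 0.27, adjusted p = 6.36e-05). In each of the 4 genes the dimmer Pemt-/- array was over 9 times as bright as the brighter Pemt+/+ array. Among the largest falls, Mup10, a major urinary protein of a family of near-identical copies whose signal is uncertain, measured 366 and 356 in Pemt-/- and 4646 and 2917 in Pemt+/+ (log2 difference -3.29 ± 0.18, adjusted p = 3.38e-05). Ces2a, a carboxylesterase, measured 1595 and 1475 in Pemt-/- and 9516 and 10642 in Pemt+/+ (log2 difference -2.70 ± 0.13, adjusted p = 1.79e-05), and Sucnr1, the succinate receptor, measured 441 and 633 in Pemt-/- and 3318 and 3294 in Pemt+/+ (log2 difference -2.61 ± 0.22, adjusted p = 0.000163). Serpina4-ps1, listed as a pseudogene, and Acpp, an acid phosphatase, fell 7.23-fold and 5.72-fold.

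Some genes differed in both weeks but by unequal amounts. Fmr1nb, a testis-linked gene, measured 7.63 and 30.9 in Pemt-/- and 779.7 and 100.2 in Pemt+/+, so that its fall rested on the Pemt+/+ array of week 3 (log2 difference -3.19 ± 0.76, adjusted p = 0.0239, and -1.31, adjusted p = 0.303 without week 3). Mgarp, a mitochondrial protein abundant in steroid-making tissue, measured 10.5 and 43.0 in Pemt-/- and 65.3 and 859.9 in Pemt+/+, so that its fall rested on the Pemt+/+ array of week 4 (log2 difference -2.76 ± 0.55, adjusted p = 0.011, and -1.62, adjusted p = 0.262 without week 4). Ly6d differed more in week 3, by 6.91 against 3.92 in week 4. Serpina7, a thyroxine-binding globulin, measured 4276 and 7099.5 in Pemt-/- and 880.1 and 274 in Pemt+/+ (log2 difference 3.44 ± 0.45, adjusted p = 0.0015). Amn, a partner of cubilin, measured 243 and 312 in Pemt-/- and 67.8 and 7.18 in Pemt+/+ (log2 difference 2.73 ± 0.50, adjusted p = 0.00779), and Sybu, a kinesin linker, measured 195 and 296 in Pemt-/- and 60.5 and 8.90 in Pemt+/+ (log2 difference 2.56 ± 0.47, adjusted p = 0.00767). Without week 4 neither Amn (1.63, adjusted p = 0.0626) nor Sybu (1.47, adjusted p = 0.065) was called. For Serpina7, Amn and Sybu the difference was the larger one in week 4, where the Pemt+/+ array was the dimmer of the pair. With 1 array per genotype and week these differences between weeks were not tested.

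The late difference was then set against the early one, estimated from other arrays but in the same fit, with a shared spread per probe set. A small spread favours both calls, so the overlap of calls is not agreement of independent tests. In the early weeks 506 genes (3.91%) were called higher and 211 (1.63%) lower. Of the 2481 genes called late, 604 were called early too, which were 604 of the 717 early calls. Of the 770 genes higher in both late weeks, 241 were also 2-fold or more higher in both early weeks and 255 in neither. Of the 194 lower genes, 38 had a 2-fold fall in both early weeks and 109 in neither. A fit of the late minus early difference called 10 genes higher (0.0772%) and 12 lower (0.0927%) by limma, and 1357 genes had an unadjusted p under 0.05.

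The genes whose difference grew upward included macrophage and matrix genes. Gpnmb measured 778 and 768 in early Pemt-/- and its late minus early difference was 2.54 ± 0.29, adjusted p = 0.0343. For Lgals3 the early Pemt-/- values were 2314 and 2157 and the difference of differences was 1.76 ± 0.20, adjusted p = 0.0343. Ctss had 6328 and 5794 in early Pemt-/- and 3733 and 4179 in early Pemt+/+ (1.58 ± 0.17, adjusted p = 0.0343). Lyz1 and Lyz2, near-identical lysozyme genes whose signals may be shared, changed by 1.42 ± 0.15, adjusted p = 0.0343 and by 1.47 ± 0.18, adjusted p = 0.0369. Serpinb6b, a protease inhibitor of immune cells, measured 329 and 404 in early and 1697 and 1754 in late Pemt-/- (2.06 ± 0.25, adjusted p = 0.0369). In Col3a1 most of the change came from Pemt+/+, which went from 5044 and 6553 in the early to 1849 and 2388 in the late weeks, while Pemt-/- measured 15126 and 13419 and then 15235 and 18860 (1.70 ± 0.20, adjusted p = 0.0354). Col1a2 had the same pattern in Pemt+/+ (1771 and 2217, then 693 and 1003, 1.83 ± 0.24, adjusted p = 0.043).

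The genes whose difference moved downward included hepatocyte enzymes and regulators. Cyp2c29 went from 8639 and 8465 in the early to 1836 and 1240.2 in the late Pemt-/- arrays, while Pemt+/+ measured 20486 and 14894 and then 23376 and 21116 (-2.84 ± 0.21, adjusted p = 0.00956). Hacl1, a peroxisomal lyase of fatty acid alpha-oxidation, and Retsat, a retinol saturase, showed early log2 differences of 0.00 and 0.05 and late ones of -1.51 and -1.31. Nr0b2 likewise went from 0.24 to -1.84 (-2.08 ± 0.24, adjusted p = 0.0343), and Akr1c19, an aldo-keto reductase, from 0.41 to -1.18 (-1.59 ± 0.18, adjusted p = 0.0343). Tbx3, a transcription factor of pericentral hepatocytes, moved in both genotypes, with 733 and 922 and then 1612 and 2019 in Pemt+/+ and 748 and 965 and then 458 and 590.3 in Pemt-/- (-1.81 ± 0.21, adjusted p = 0.0343). Gstt2, a glutathione transferase, and Acot3, a peroxisomal thioesterase, were higher in early Pemt-/- (1.92 and 2.57) and had late differences of -0.25 and -0.63 that were not called. Ehhadh reversed its sign, from 0.57 to -0.91 (-1.47 ± 0.19, adjusted p = 0.0369). None of these calls was made without limma's intensity trend, and 1 of the 26 probe sets called was left when dim probe sets were kept in.

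**Figure D5:**
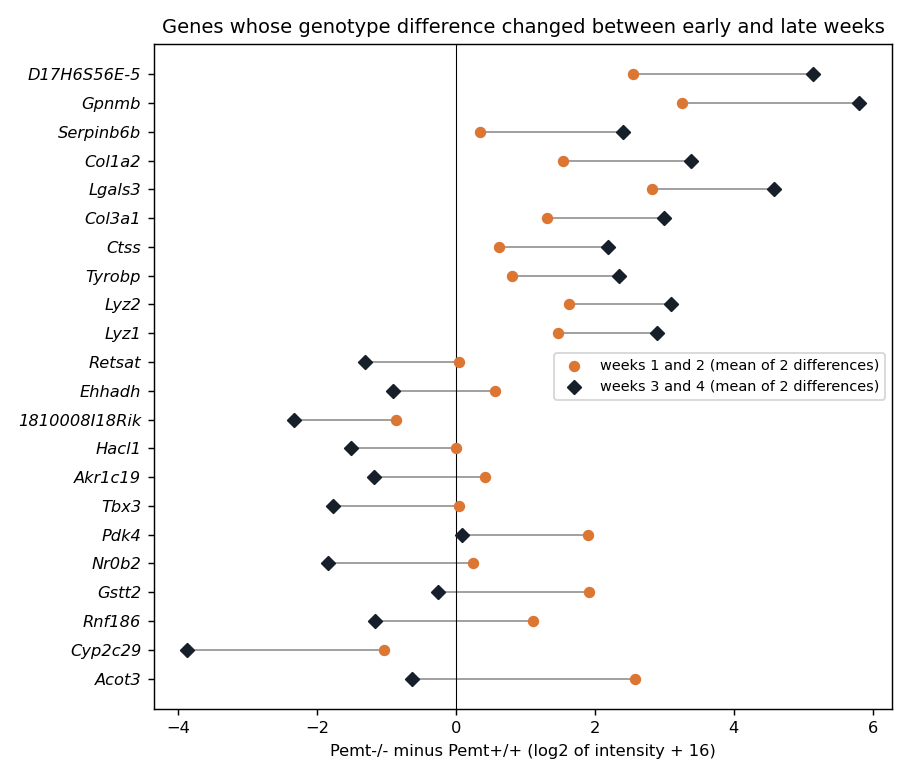
Difference between Pemt-/- and Pemt+/+ (log2 of intensity + 16) in the early weeks (orange circles) and the late weeks (black diamonds) for the 22 genes whose late minus early difference was called. The 10 upper genes move to the right, with Gpnmb at 5.80 in the late weeks, and the 12 lower genes move to the left, with Cyp2c29 at -3.87.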

How the data were processed

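Liver RNA of Pemt-/- and Pemt+/+ mice on the HFHS diet was measured on Affymetrix arrays, with 1 array per genotype and week. The deposited intensities were made by the authors with Affymetrix Expression Console, per the submitters' processing notes, for which no source used here gives a version or a summarisation method. Tested on the values, they were linear and every array had a mean of 500.004 after 2% was trimmed from each end. Such scaling makes values relative, so that a gain by many genes lowers the rest.

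Differences were computed on log2(intensity + 16), a scale that understates changes of dim genes. Probe sets with a mean above the 40th percentile over the 8 arrays were tested, 27022 of 45037. limma 3.58.1 (R 4.3.3) fitted week as a factor and separate genotype effects for early and late weeks over all 8 arrays, which left 2 residual degrees of freedom, with an intensity trend in eBayes and two-sided tests. The week, which the labels give for both genotypes, pairs the arrays and was the replicate block. Values after ± are moderated standard errors, with n = 2 arrays a side. Their spread came from all 8 arrays, and eBayes added 6.68 prior degrees of freedom drawn from all probe sets. Adjusted p-values are Benjamini-Hochberg values over all probe sets, with a threshold of 0.05. A gene is represented by its brightest probe set (12949 genes), named from the platform annotation. Other probe sets of a gene did not always share its call, as for Lpcat2, Cltc, Ccr2 and Acly.

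Gene lists, named genes and the rule itself were chosen with earlier results of these data known, so counts in them are descriptions. The rule named the genes the study followed (a list chosen by the study on these mice, not independent evidence), the 15 largest rises and falls in both weeks at a mean intensity of 200 or more, 4 members of each list with the smallest p, members against their list's direction, 8 genes each way with the smallest p for late minus early, and 6 genes with the most unequal weeks. A further 26 list members were chosen after their values were seen: Acaca, Alb, Ccr2, Cyp1a2, Cyp3a25, Cyp8b1, Ddit3, Fads1, Fasn, Fgb, Foxm1, Hspa5, Lrat, Lum, Mat1a, Mcm5, Mmp13, Nnmt, Nqo1, Pcna, Sqle, Srebf1, Srebf2, Thbs1, Timp1 and Vcan. The fit was tested on simulated data. Filters, scalings, pseudocounts, the trend, the block, the methods' t-test and left-out weeks were tried as alternatives. Python 3.11.15 with numpy 2.4.6, pandas 2.3.3 and scipy 1.17.1 made the tables.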

Additional observations from a re-analysis of the deposited data

Results flagged for a closer look

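The genotype difference of 18 named genes in weeks 3 and 4 differed from that in weeks 1 and 2 by limma's test of the late minus early difference, each with an adjusted p of 0.00957 to 0.0430. On the log2 scale the difference changed upward for Gpnmb by 2.54, for D17H6S56E-5 by 2.58, for Serpinb6b by 2.06, for Col1a2 by 1.83, for Lgals3 by 1.76, for Col3a1 by 1.70, for Ctss by 1.58, for Lyz2 by 1.47 and for Lyz1 by 1.42. For the other 9 genes the late minus early value was -3.20 (Acot3), -2.84 (Cyp2c29), -2.17 (Gstt2), -2.08 (Nr0b2), -1.81 (Tbx3), -1.59 (Akr1c19), -1.52 (Hacl1), -1.47 (Ehhadh) and -1.36 (Retsat). All 18 lost their call without limma's intensity trend and 17 of 18 with dim probe sets kept in. Without week 3, Lyz2 and Ehhadh lost it.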

How the results depend on the processing

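Probe sets called in the late difference (2525 higher, 1537 lower) came to 1044 and 318 without the intensity trend, where 76.65% of calls were higher in place of 62.16%. They ranged from 1243 to 3506 higher and from 531 to 2466 lower when 1 week was left out, with the low ends without weeks 3 and 4, which leave 1 array a side whose spread is taken from the early arrays. With only the 4 late arrays and week as the replicate block there were 3547 and 2482, without the block 2889 and 1875, and with all 8 arrays and no replicate block 2439 and 1453. The methods' t-test called 0 higher and 0 lower after Benjamini-Hochberg adjustment, late or in both weeks, with 5540 at an unadjusted p under 0.05. The other filters, scalings and pseudocounts kept the counts of the late difference and of both weeks within 1.5 times, and the rule on both weeks cannot be applied without week 3 or 4. The 26 probe sets called for late minus early became 1 with no filter, 44 with the 60th percentile filter, 10 under quantile normalization, 49 with pseudocount 64, 0 without the trend (2050 at an unadjusted p under 0.05), 5 without the replicate block, and 83 to 475 with 1 week left out (475 without week 1). Ratios of 2 or more and 0.5 or less in both weeks went to 1755 and 761 probe sets with the brighter array at 50 or more.

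Of 223 named genes, late calls were lost by 67 without the trend, 35 without week 3, 45 without week 4, 16 with no filter, 14 under quantile normalization (Alb with a turned sign among them) and 198 by the methods' t-test. Signs turned for genes that had no call or lost it: with the mean of a gene's probe sets Zap70 (-0.183), Acaca (-0.133), Fads1 (-0.106) and Srebf2 (0.0640), and under quantile normalization Alb (0.00890) and Hspa5 (0.281). With 1 late week left out, Prss2 ranged from -1.93 to 0.125, Fads1 from -0.123 to 0.184 and Thbs1 from -0.0745 to 0.242. The causes were not tested. Probe sets near the bottom of the scale limit the size of folds such as that of Mmp12.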
